A study of Mus musculus with 24 samples.

Results

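Cytochrome P450 families 2, 3 and 4 were taken as all genes whose symbol matched Cyp2, Cyp3 or Cyp4 followed by a subfamily letter and a number, without pseudogenes and without other families. This rule, set on symbols alone, found 73 members among the 55450 genes of the deposited table, all annotated as protein coding. Left out by their letter suffix were 5 near relatives, namely Cyp3a41a, Cyp3a41b, Cyp4a12a, Cyp4a12b and Cyp4a30b.

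The data are total RNA libraries of liver, cerebellum and testes. They compare mice that lack Thumpd1 (KO), an adapter through which Nat10 acetylates certain tRNAs, with wild-type (WT) mice. The KO is a whole-body deletion, made on C57BL/6N with Cas9 and guides to exons 1 and 4. There were 4 libraries per genotype and tissue, numbered 1 to 4 in WT and 5 to 8 in KO, from animals of 6 to 12 weeks and, by the labels, of either sex, with age-matched littermates as controls. The comparison asks how P450 transcripts differ between KO and WT in each tissue. The study describes the libraries as biological replicates. The labels do not tie a library to an animal or to an hour of collection, so p-values measure the spread between these libraries. The genes Ddx3y, Eif2s3y, Kdm5d and Uty of the Y chromosome summed to 62.0 to 80.8 CPM (counts per 1000000 counts of the library) in the 8 liver libraries. Xist, which is expressed from the inactive X chromosome of females, stood at 0.124, 0.0324, 0.0622 and 2.59 CPM in WT liver and 0.0, 0.0551, 0.106 and 0.132 CPM in KO liver, highest in WT library 4. In cerebellum the 4 Y-linked genes summed to 194 to 214 CPM in WT and 148 to 175.5 CPM in KO, with Xist at most 0.283 CPM. In testes, a male organ, they summed to 56.7 to 71.5 CPM in WT and 69.8 to 82.9 CPM in KO. Every library thus held Y-linked transcripts and none read as female alone, although the labels allow either sex. The part of Xist in the P450 values was not tested.

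P450 enzymes use a heme group and electrons from the reductase Por to insert an oxygen atom into their substrates. In the mouse, families 2 and 3 include most of the enzymes of the hepatocyte that oxidise drugs, plant compounds and steroids, and family 4 hydroxylates fatty acids and eicosanoids. Many stand in tandem clusters of recent duplicates. In liver they are known to depend on the nuclear receptors CAR, PXR and PPARalpha, on the male or female pattern of growth hormone, on the hour of the day and on the place of the cell between the portal and the central vein.

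The members lay on 9 chromosomes, with 15 each on chromosomes 4, 7 and 19, and 8 each on chromosomes 5, 15 and 17. Since paralogs this close share reads, each member's main transcript was cut into all windows of 75 nt and each window was looked for in the transcripts of all other genes. An exact copy of at least 1 window was found elsewhere for 49 members, and over 10% of the windows were shared for 25. Cyp2c40 shared 57.14% of its windows, first with Cyp2c69, which shared 43.19%, and Cyp2c67 shared 36.01%. Cyp4a32 shared 30.36%, first with Cyp4a10, and Cyp2a5 shared 25.53%, first with Cyp2a4. Reads in such stretches are divided between genes by estimation, so values of these members are uncertain. Cyp2f2, Cyp2j5, Cyp2j6, Cyp2j9, Cyp4a14 and Cyp4f39 shared no window. The exons of 8 members overlap a gene on the other strand, among them Cyp2f2 with Gm15883 and Cyp4x1 with Cyp4x1os, and those of 6 overlap a gene on the same strand, among them Cyp4v3 with Gm45753. The strand setting of the counting is not given in the sources used here, so those are uncertain too.

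The likeness can be read in the stretch that codes for the heme-binding signature, the pattern of phenylalanine, glycine, cysteine and glycine around the cysteine that holds the iron. It was found in the GENCODE M21 coding sequence of 71 members, all but Cyp2s1 and Cyp3a59, with 57 different sequences of 30 nt. The stretches below, read 5′ to 3′ on the coding strand, have the 30 nt of the signature in capitals and 15 nt on each side, and are shown for the members on which the liver results turn.
Cyp2a5: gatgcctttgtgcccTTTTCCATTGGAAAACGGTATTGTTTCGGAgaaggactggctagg
Cyp2b9: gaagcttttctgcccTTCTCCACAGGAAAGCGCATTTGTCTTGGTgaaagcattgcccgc
Cyp2b10: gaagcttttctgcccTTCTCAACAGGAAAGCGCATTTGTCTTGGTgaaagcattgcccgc
Cyp2c29: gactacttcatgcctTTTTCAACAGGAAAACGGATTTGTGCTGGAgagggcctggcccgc
Cyp2c40: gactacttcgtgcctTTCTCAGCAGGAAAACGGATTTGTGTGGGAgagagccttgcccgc
Cyp2c69: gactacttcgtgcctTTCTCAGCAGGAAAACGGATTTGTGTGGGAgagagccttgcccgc
Cyp2e1: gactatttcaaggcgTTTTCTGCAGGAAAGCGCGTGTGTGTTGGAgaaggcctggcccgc
Cyp3a11: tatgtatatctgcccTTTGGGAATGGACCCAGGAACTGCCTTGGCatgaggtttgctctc
Cyp4a31: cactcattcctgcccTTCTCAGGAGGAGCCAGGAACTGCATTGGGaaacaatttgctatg
Cyp4v3: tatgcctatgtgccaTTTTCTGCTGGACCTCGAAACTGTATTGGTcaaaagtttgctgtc
The whole stretch was identical in Cyp2c40, Cyp2c67 and Cyp2c69, in Cyp4a10, Cyp4a31 and Cyp4a32, and in Cyp2a4 and Cyp2a5. Over their aligned coding sequences Cyp2a4 and Cyp2a5 were 98.45% identical, Cyp2c67 and Cyp2c69 97.69%, Cyp4a10 and Cyp4a32 97.18%, Cyp2c40 and Cyp2c69 92.44%, and Cyp2b9 and Cyp2b10 87.78%. Columns with gaps counted as differences here. The annotated coding sequence has 1560 nt in Cyp2c40 and 1473 nt in Cyp2c69, which lowers the value of that pair.

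Total counts ran from 16353797 to 37889615 per library, and the WT and KO liver libraries began at 26992675 and 18145725. Thumpd1 was lower in KO in each tissue, by a log2 change of -7.47 in liver, -8.72 in cerebellum and -4.81 in testes (limma, adjusted p = 2.77e-05, 5.25e-09 and 2.71e-08). Each tissue held its own markers, with summed hepatocyte markers of 43504 to 77993 CPM in liver, granule cell markers of 1189 to 1379.9 CPM in cerebellum and spermatid markers of 4375 to 6762 CPM in testes. KO liver libraries fell into the pairs 5 and 6, and 7 and 8. Over the members tested in liver, the median absolute log2 difference was 0.0524 between KO libraries 5 and 6 and 0.112 between 7 and 8, but 0.324 to 0.386 from either of 5 and 6 to either of 7 and 8. In WT liver it was 0.0529 between libraries 1 and 2, 0.127 between 2 and 3, 0.154 between 1 and 3, and 0.239 to 0.296 from library 4 to the others. In cerebellum the neighbours were no closer in KO, at 0.131 for 5 and 6 and 0.129 for 7 and 8, than other KO libraries, at 0.113 to 0.191. The labels do not say what sets the KO liver pairs apart. A set of 6 abundant noncoding RNAs took 27.2% and 26.4% of the counts in KO libraries 5 and 6, 18.8% and 17.5% in 7 and 8, and 17.5% to 31.0% in WT, with the highest share in WT library 4.

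Expression of the members was mostly hepatic. They took 1.46 ± 0.17% of all counts in WT liver and 1.61 ± 0.221% in KO liver (SD, n = 4), against 0.0148% to 0.0167% in the cerebellum libraries and 0.0082% to 0.0094% in the testes libraries. A gene was tested in a tissue when it reached 1 CPM in at least 4 of the 8 libraries. By this filter 44 members were tested in liver, 13 in cerebellum and 17 in testes. Of the 29 members not tested in liver, 9 had 0 counts in all 8 libraries and 16, these included, never rose above 3 counts, the limit that a count of 0 allows. Tested in at least 1 tissue were 50 members, and their WT mean was highest in liver for 42, in cerebellum for Cyp2j9, Cyp2j12, Cyp2s1, Cyp4f16 and Cyp4x1, and in testes for Cyp2b19, Cyp4f37 and Cyp4f39. Tested in all 3 tissues were 8, namely Cyp2d22, Cyp2j6, Cyp2u1, Cyp4f13, Cyp4f14, Cyp4f15, Cyp4f17 and Cyp4v3.

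Per length, WT liver held 1926 ± 288 (SD) CPM per kb of transcript of Cyp2e1, which oxidises ethanol and acetaminophen. Next came Cyp3a11, the main mouse Cyp3a enzyme, at 782 ± 113 (SD), and Cyp2d9, a male-biased testosterone hydroxylase, at 757 ± 114 (SD) CPM per kb, which did not differ beyond their spread. They were followed by Cyp2c29 at 573 ± 12.8 (SD) and Cyp2f2 at 507 ± 67.1 (SD) CPM per kb, whose spreads touch. Cyp2f2 is known for the activation of naphthalene. In cerebellum the highest was Cyp2j9, of a subfamily of arachidonate oxidases, at 17.4 ± 0.779 (SD) CPM per kb. In testes Cyp2d26 at 8.37 ± 0.827 (SD) and Cyp4f39 at 7.91 ± 0.262 (SD) CPM per kb were highest, and their spreads overlap.

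**Figure D1:**
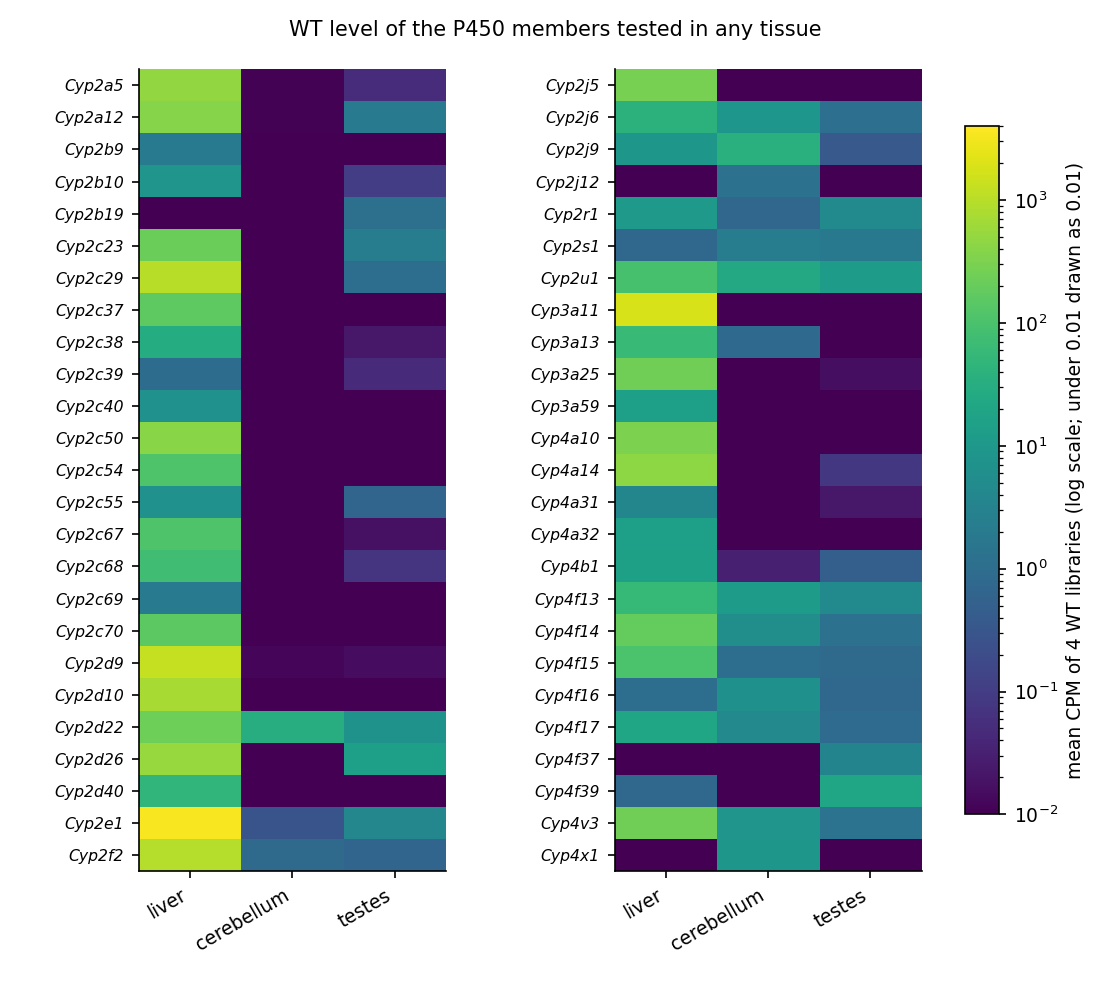
Mean CPM of the 4 WT libraries for the 50 members tested in any tissue, as colour on a log scale, with members in rows by subfamily and the tissues liver, cerebellum and testes in columns. Most rows are brightest in liver, where Cyp2e1 averaged 3529.5 CPM, and 8 are brightest in another tissue.

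In liver, 16 of the 44 tested members passed the test between KO and WT, 12 higher and 4 lower in KO. This was 36.4% of those tested, against 5.91% of all 12816 genes tested in liver, and by direction 2.79% of all genes were called higher and 3.12% lower. Higher in KO were Cyp2b9, Cyp2b10, Cyp2c29, Cyp2c50, Cyp2c54, Cyp2c67, Cyp2j5, Cyp3a11, Cyp4a31, Cyp4a32, Cyp4f17 and Cyp4v3. Lower were Cyp2a5, Cyp2c40, Cyp2c69 and Cyp2f2. The median log2 change was 0.142 over the tested members and -0.003 over all genes tested, and the median size among the called was 0.634 for members and 0.465 for all genes. WT and KO libraries did not overlap for 16 tested members (36.4%), 13 of them among the called, against 12.7% of all genes. At an unadjusted p under 0.05 there were 24 members, against 23.3% of all genes. Cyp2c40 and Cyp2c69 reached 1 CPM in the WT libraries alone, so a tested gene of that kind had to differ, and without them 14 of 42 members were called. Without also Cyp2b9 and Cyp4f16, which all KO libraries but not all WT libraries brought past the filter, it was 13 of 40. In bulk tissue, fewer cells of a type and less RNA per cell cannot be told apart.

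The count of 16 fell to 7 without WT library 1, to 10 without WT library 2 and to 10 without KO library 8, while the calls over all genes fell from 757 to 292, 328 and 368. KO libraries 5 and 6 both lay below 7 and 8 for 30 of the 44 members (68.2%), against 41.3% of all genes tested. The pairs were therefore left out in turn, a choice made after seeing the data. Without KO libraries 5 and 6, 23 members and 1034 genes in all passed, with all of the 16 among the members. Without KO libraries 7 and 8, 18 members and 1409 genes in all passed, with 11 of the 16 among the members, and Cyp2c40, Cyp2c50, Cyp2c54, Cyp2c69 and Cyp4f17 no longer did. Gained were Cyp2c38, Cyp2j9, Cyp2r1, Cyp3a13, Cyp4a10, Cyp4a14 and Cyp4b1 without 5 and 6, and Cyp2c23, Cyp2d22, Cyp2d26, Cyp2e1, Cyp2j6, Cyp4a14 and Cyp4f14 without 7 and 8. KO libraries 5 and 6 lay below and 7 and 8 above all WT libraries for Cyp2d26, Cyp2e1, Cyp4a14 and Cyp4f15. How many of all genes did so was not counted. When neighbouring libraries were summed, which leaves 2 summed libraries per group, limma called 0 members and 10 genes in all, with 20 members and 9.39% of all genes at an unadjusted p under 0.05. Without WT libraries 1 and 2, Cyp2a5, Cyp2b10, Cyp2c29, Cyp2c40 and Cyp3a11 were the members still called, among 169 genes, and Cyp2f2 was not (adjusted p = 0.0839). Without WT libraries 3 and 4, 808 genes were called, and Cyp2b9, Cyp2c69, Cyp2j5, Cyp3a11, Cyp4a31, Cyp4a32 and Cyp4f17 were not. Cyp2a5, Cyp2b10 and Cyp2c29 passed in every other fit made, including each library and each pair of KO or WT libraries left out.

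**Figure D2:**
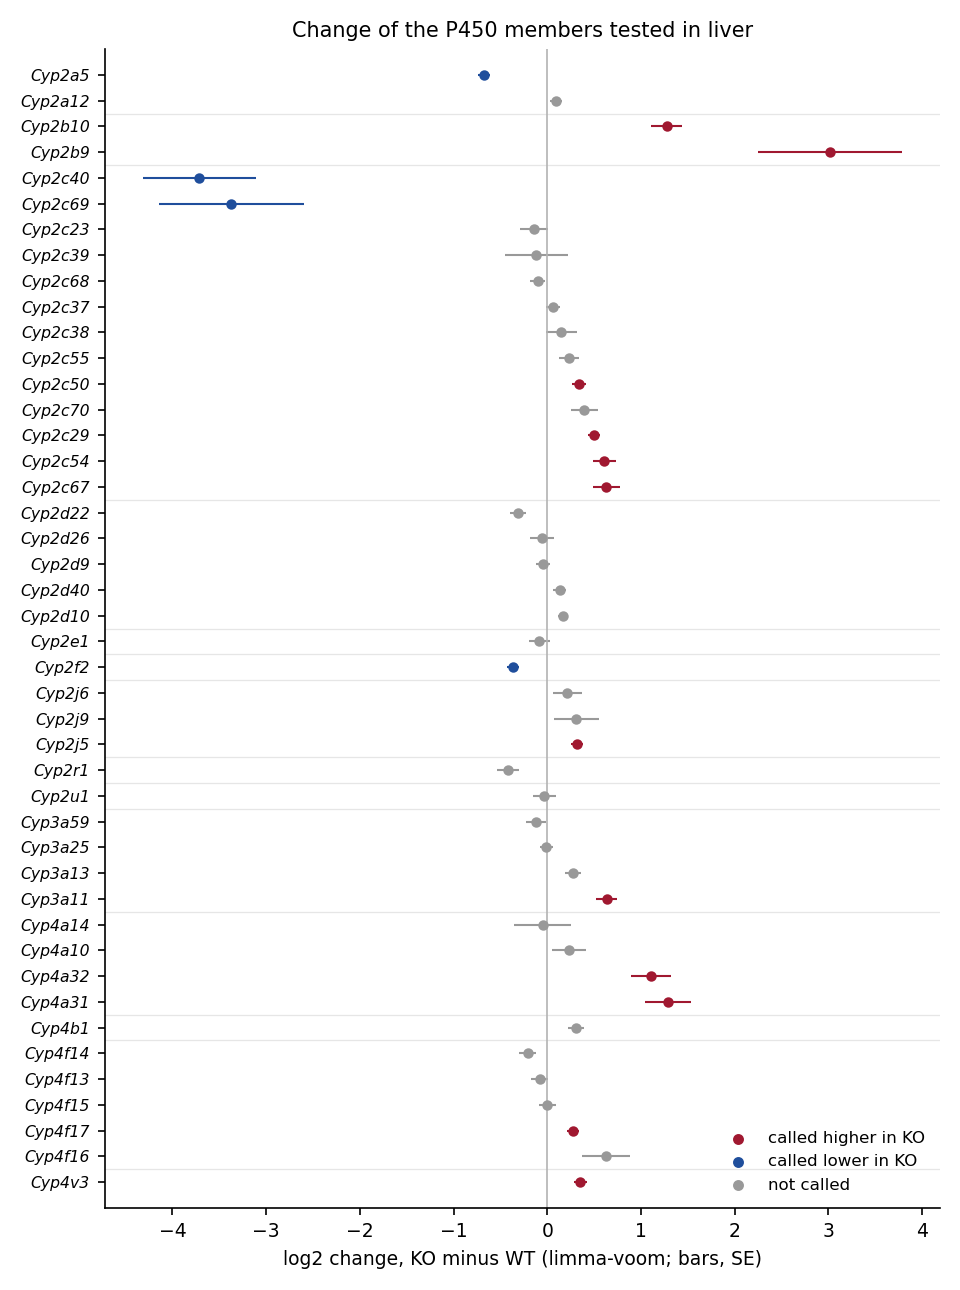
Change of each of the 44 members tested in liver, as the log2 difference of KO minus WT on the horizontal axis (point, limma-voom estimate with bar for 1 SE), grouped by subfamily on the vertical axis. The 12 members called higher are red and the 4 called lower are blue, and the changes run from -3.71 for Cyp2c40 to 3.02 for Cyp2b9.

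Cyp2b genes rose in KO liver. Cyp2b10 (ENSMUSG00000030483.14, mm10 chr7:25897620-25926624, plus strand), the textbook target of CAR, stood at 8.84, 7.87, 9.02 and 7.45 CPM in WT and 15.03, 15.7, 24.2 and 25.0 CPM in KO, with values here and below in library order. All KO libraries lay above all WT libraries, and 7 and 8 above 5 and 6 (limma, log2 change 1.28, SE 0.163, adjusted p = 0.00226). Cyp2b9 (ENSMUSG00000040660.6, chr7:26173411-26210661, plus strand), known as female-biased in liver, stood at 1.36, 0.874, 3.11 and 2.93 CPM in WT and 6.71, 5.90, 26.1 and 29.6 CPM in KO. The groups again did not overlap, and the libraries 7 and 8 held most of the rise (limma, log2 change 3.02, SE 0.767, adjusted p = 0.0446). That call was lost without any one of the WT libraries or KO library 7 or 8 (adjusted p = 0.0642 to 0.125), and with no filter on low counts. Their neighbour Cyp2b13 did not reach the filter, with at most 0.351 CPM in any KO library. Summed, the 5 Cyp2b genes held 8.77 to 12.2 CPM in WT and 21.7 to 54.7 CPM in KO (log2 change 1.80, limma adjusted p = 0.00868).

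The promoters of this group are shown because Cyp2b9 and Cyp2b10, neighbours on chromosome 7, both rose while their windows differ in sequence. RefSeq windows (GRCm38.p6) of the 250 bases before the first base of the transcript were matched by symbol for 60 of the 73 members, which gave 67 windows. The windows below lie at chr7:26173159-26173408 for Cyp2b9, chr7:26061245-26061494 for Cyp2b13 and chr7:25897408-25897657 for Cyp2b10, all on the plus strand, with capitals for AGGTCA, a motif read by nuclear receptors.
Cyp2b9: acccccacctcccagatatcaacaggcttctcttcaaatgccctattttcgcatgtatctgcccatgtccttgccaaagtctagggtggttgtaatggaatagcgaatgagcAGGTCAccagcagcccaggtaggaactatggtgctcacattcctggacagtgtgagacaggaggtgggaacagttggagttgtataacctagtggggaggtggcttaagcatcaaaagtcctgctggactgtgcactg
Cyp2b13: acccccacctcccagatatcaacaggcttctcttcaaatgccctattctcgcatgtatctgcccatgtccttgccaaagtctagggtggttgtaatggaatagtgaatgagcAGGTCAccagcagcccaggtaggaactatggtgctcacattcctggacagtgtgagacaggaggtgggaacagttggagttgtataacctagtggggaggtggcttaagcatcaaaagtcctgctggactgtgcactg
Cyp2b10: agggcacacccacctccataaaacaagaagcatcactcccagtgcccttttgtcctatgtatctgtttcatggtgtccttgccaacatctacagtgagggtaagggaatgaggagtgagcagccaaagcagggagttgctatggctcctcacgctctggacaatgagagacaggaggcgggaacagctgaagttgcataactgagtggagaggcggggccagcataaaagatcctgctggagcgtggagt
Those of Cyp2b9 and Cyp2b13 were 99.2% identical over 250 columns and held AGGTCA 138 bases before the first base, though Cyp2b13 reached at most 0.351 CPM in liver. Cyp2b9 and Cyp2b10 were 72.0% identical, and the Cyp2b10 window held none of the motifs searched. On both strands, AGGTCA was found in 25.37% of the member windows and in 14.02% of all 32851 windows. The TATA box TATAAA was found in 32.84% against 12.37%, the STAT motif TTCNNNGAA in 5.97% against 7.02%, and the motif TTANGTAA of the Dbp family in 1.49% against 2.06%. Such matches are letters in a window and not sites.

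Cyp2c genes moved in both directions. Cyp2c29 (ENSMUSG00000003053.17, chr19:39269405-39330713, plus strand), an abundant epoxygenase that CAR and PXR are known to raise, stood at 1034, 1022, 1039.9 and 989 CPM in WT and 1328, 1313, 1482 and 1605 CPM in KO. Its 4 WT libraries lay close together and below all KO libraries (limma, log2 change 0.50, SE 0.0639, adjusted p = 0.0022). Cyp2c54 stood at 110.2, 101, 134 and 113 CPM in WT and 144, 151, 188 and 207 CPM in KO, also without overlap (limma, log2 change 0.61, SE 0.125, adjusted p = 0.0181). Cyp2c50 stood at 416, 402, 453 and 384 CPM in WT and 447, 452, 556 and 619 CPM in KO, and its groups overlapped (limma, log2 change 0.34, SE 0.0784, adjusted p = 0.0307). That call was lost with edgeR, with TMM factors and without WT library 1 or 2 or KO library 7 or 8 (adjusted p = 0.0627 to 0.0995). That of Cyp2c54 was lost without WT library 1 or 2 or KO library 8 (adjusted p = 0.0508 to 0.0628). Cyp2c54 shares windows first with Cyp2c50, and Cyp2c50 first with Cyp2c37, which did not pass (0.060, adjusted p = 0.664). Cyp2c67 stood at 112, 108, 121 and 111 CPM in WT and 135, 140.1, 197 and 231 CPM in KO, with libraries 7 and 8 well above 5 and 6 and all KO above all WT (limma, log2 change 0.63, SE 0.142, adjusted p = 0.0274). Without WT library 1 or 2 or KO library 7 or 8 it was not called (adjusted p = 0.0508 to 0.0854).

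Cyp2c40 and Cyp2c69 had the largest falls. Cyp2c40 (ENSMUSG00000025004.15, chr19:39767071-39812814, minus strand), a female-biased arachidonate oxidase, stood at 5.17, 3.93, 10.4 and 8.33 CPM in WT and 0.730, 0.744, 0.454 and 0.583 CPM in KO. Every KO library lay below every WT library (limma, log2 change -3.71, SE 0.604, adjusted p = 0.00675). Cyp2c69 (ENSMUSG00000092008.2, chr19:39842814-39886799, minus strand) stood at 1.43, 1.46, 3.11 and 2.40 CPM in WT and 0.730, 0.581, 0.277 and 0.0486 CPM in KO, the last from fewer than 3 counts. Its groups did not overlap either (limma, log2 change -3.37, SE 0.770, adjusted p = 0.0294), but the call was lost without WT library 1, 2 or 3 or KO library 7 or 8 (adjusted p = 0.0518 to 0.0854). Both genes passed the filter through the WT libraries alone, so their tests are a description, and the call of Cyp2c40 was lost without KO libraries 7 and 8 (adjusted p = 0.0648). They share windows with each other, with Cyp2c67, which rose, and with Cyp2c68, which shared 28.48% of its windows and did not pass (-0.10, adjusted p = 0.504), so how reads were split among the 4 bears on all of them. The 15 Cyp2c genes summed rose by 0.30 on the log2 scale (limma adjusted p = 0.0384), a sum in which Cyp2c29 weighs most.

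The RefSeq promoters of this pair are shown because both fell and both start from nearly the same sequence. They lie at chr19:39812815-39813064 for Cyp2c40 and chr19:39886770-39887019 for Cyp2c69, on the minus strand, and capitals mark the longest identical run, of 93 bases.
Cyp2c40: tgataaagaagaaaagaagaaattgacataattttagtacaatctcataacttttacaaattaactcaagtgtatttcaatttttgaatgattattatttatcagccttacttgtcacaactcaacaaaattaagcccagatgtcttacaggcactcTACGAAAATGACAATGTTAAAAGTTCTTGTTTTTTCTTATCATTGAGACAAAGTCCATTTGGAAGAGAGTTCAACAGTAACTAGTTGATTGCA
Cyp2c69: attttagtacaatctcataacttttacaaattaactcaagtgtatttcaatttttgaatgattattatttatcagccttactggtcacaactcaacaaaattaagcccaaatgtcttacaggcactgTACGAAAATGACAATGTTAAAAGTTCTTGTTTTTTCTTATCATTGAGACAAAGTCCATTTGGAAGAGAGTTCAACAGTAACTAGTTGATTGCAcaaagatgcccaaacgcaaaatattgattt
They were 98.6% identical over 220 aligned columns, and neither held one of the motifs searched. The windows of Cyp2c67, which rose, and Cyp2c68, which did not pass, hold much of the same sequence. The likeness is therefore not particular to the pair that fell. Identity to those windows was not measured.

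Cyp2a5 and Cyp2f2, which lie in one cluster on chromosome 7, were lower in KO. Cyp2a5 (ENSMUSG00000005547.14, chr7:26835305-26843548, plus strand), the coumarin hydroxylase, stood at 543, 528, 499 and 387 CPM in WT and 269.6, 274, 312 and 327 CPM in KO. The highest KO library lay below the lowest WT library, WT 4 (limma, log2 change -0.67, SE 0.0660, adjusted p = 0.000443). It shares windows with Cyp2a4, which held at most 0.75 CPM in any liver library. Cyp2f2 (ENSMUSG00000052974.8, chr7:27119909-27133660, plus strand) stood at 1029.6, 997, 997 and 759 CPM in WT and 654, 661, 775 and 786 CPM in KO. Here WT library 4 fell within the KO range and the groups overlapped (limma, log2 change -0.37, SE 0.0613, adjusted p = 0.00758).

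Cyp3a11 (ENSMUSG00000056035.8, chr5:145854426-145879964, minus strand), the main target of PXR in the mouse, stood at 2091, 2000.3, 1732 and 1508 CPM in WT and 2878, 2979, 2478 and 2809 CPM in KO. All KO libraries were above all WT libraries, and in contrast to most members libraries 5 and 6 were not the low ones (limma, log2 change 0.64, SE 0.111, adjusted p = 0.00892). The call was lost without WT libraries 3 and 4 (adjusted p = 0.059). Limma called none of the other tested members of the subfamily, with 0.28, adjusted p = 0.0807 for Cyp3a13, -0.0086, adjusted p = 0.958 for Cyp3a25 and -0.12, adjusted p = 0.541 for Cyp3a59. Cyp3a13 was called by DESeq2 (0.26, adjusted p = 0.0441) and by limma without KO libraries 5 and 6 (0.40, adjusted p = 0.0115). The 7 Cyp3a genes summed rose by 0.55 on the log2 scale (limma adjusted p = 0.0127).

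Among the fatty acid hydroxylases of family 4, the minor Cyp4a members rose and the abundant ones split by library pair. Cyp4a12a and Cyp4a12b, left out by the symbol rule, are not part of this. Cyp4a31 stood at 3.52, 4.02, 3.61 and 3.54 CPM in WT and 6.24, 5.94, 11.7 and 12.6 CPM in KO, without overlap (limma, log2 change 1.29, SE 0.249, adjusted p = 0.0143). Cyp4a32 stood at 14.5, 15.7, 17.5 and 11.5 CPM in WT and 23.8, 20.5, 39.5 and 43.3 CPM in KO, also without overlap (limma, log2 change 1.11, SE 0.218, adjusted p = 0.0152). Without WT library 1 both calls were lost (adjusted p = 0.0551 and 0.0557). Both share windows with the more abundant Cyp4a10, a PPARalpha target, and how reads were split among the 3 bears on these values. Cyp4a10 itself stood at 388, 383, 293 and 222 CPM in WT and 264, 269, 471 and 501 CPM in KO and did not pass (0.23, adjusted p = 0.48). Cyp4a14, which shares no window, stood at 539, 516, 378 and 332 CPM in WT and 237, 247, 674 and 713 CPM in KO (-0.049, adjusted p = 0.946). Its KO libraries lay on either side of the WT range, below it for 5 and 6 and above it for 7 and 8. Its log2 change was 0.62 without KO libraries 5 and 6 (limma adjusted p = 0.0196) and -0.70 without 7 and 8 (limma adjusted p = 0.0131), so it was called in opposite directions. The split was chosen after seeing these values, so both are a description. The sum of the Cyp4a members, without Cyp4a12a and Cyp4a12b, did not pass (log2 change 0.071, limma adjusted p = 0.896).

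The remaining rises were small and even. Cyp4v3 (ENSMUSG00000079057.4, chr8:45304944-45333216, minus strand), a fatty acid hydroxylase, stood at 259, 255, 241 and 225 CPM in WT and 312, 305, 279.9 and 288 CPM in KO and the groups did not overlap (limma, log2 change 0.35, SE 0.0673, adjusted p = 0.0134). Cyp2j5, an arachidonate epoxygenase, stood at 324, 306, 263 and 248 CPM in WT and 338, 329, 323 and 342 CPM in KO. WT library 1 lay just inside the KO range (limma, log2 change 0.32, SE 0.0648, adjusted p = 0.0174), and the call was lost with edgeR (adjusted p = 0.0615) and without WT library 3 (adjusted p = 0.0521). The call of Cyp4v3 was lost without WT library 1 (adjusted p = 0.0519). Cyp4f17 stood at 22.0, 22.3, 20.8 and 19.3 CPM in WT and 24.1, 22.7, 26.6 and 27.3 CPM in KO, where the lowest KO library was only a little above the highest WT library (limma, log2 change 0.27, SE 0.0662, adjusted p = 0.0366). That call was lost with no filter, in the fit of all 24 libraries and with any single library left out except KO 6 (adjusted p = 0.0555 to 0.113).

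**Figure D3:**
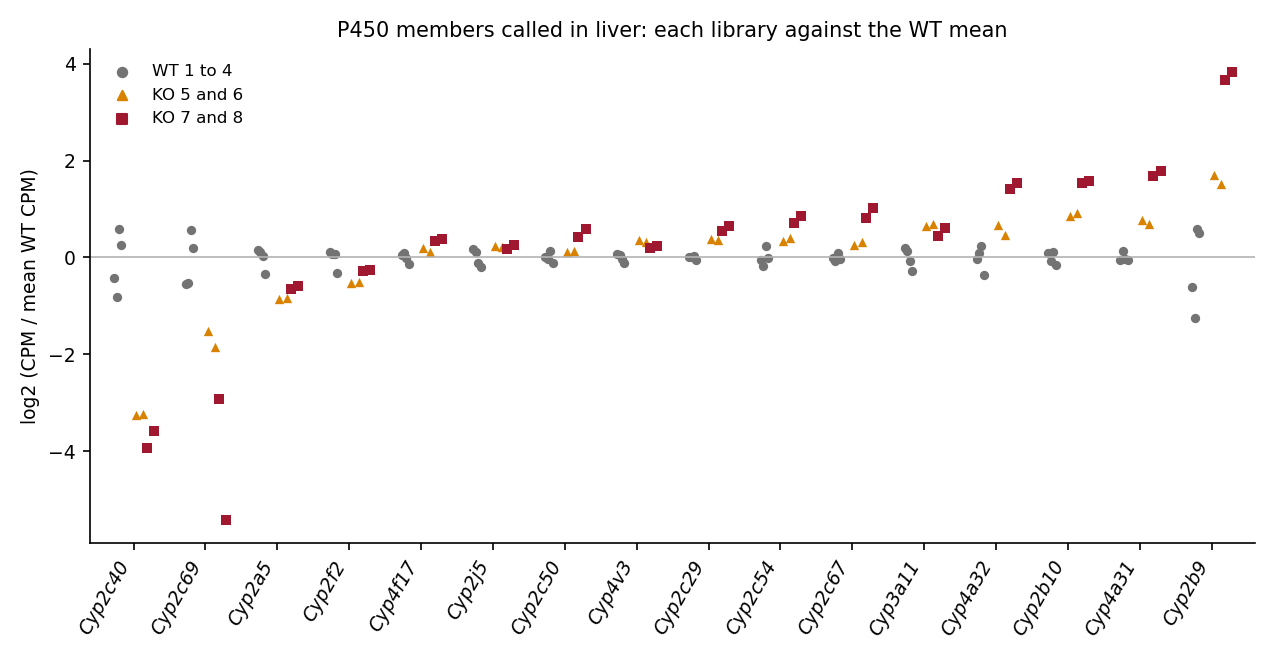
Each liver library of the 16 called members as log2 of its CPM over the WT mean (vertical axis), with members ordered by change (horizontal axis), WT libraries as grey circles, KO libraries 5 and 6 as orange triangles and KO libraries 7 and 8 as red squares. For Cyp2b9 the triangles stand at 5.90 and 6.71 CPM and the squares at 26.1 and 29.6 CPM, while for Cyp3a11 all 4 lie within 2478 to 2979 CPM.

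Several of the most abundant members did not pass. Cyp2e1 (ENSMUSG00000025479.9, chr7:140763739-140774987, plus strand) stood at 3954, 3842, 3539 and 2783 CPM in WT and 2716, 2731, 4496 and 4822 CPM in KO (-0.083, adjusted p = 0.694). KO libraries 5 and 6 were below all WT libraries and 7 and 8 above them all, and its sign was positive with TMM factors, edgeR and DESeq2. Its log2 change was -0.25 without KO libraries 7 and 8, where limma called it (adjusted p = 0.034), and 0.11 without 5 and 6, where it did not (adjusted p = 0.393), again as a description. Cyp2d9 stood at 1461, 1439.8, 1237 and 1047 CPM in WT and 1213, 1194, 1241 and 1229 CPM in KO, with overlapping groups (-0.047, adjusted p = 0.749). Limma with quantile normalization called none of the 5 tested Cyp2d genes, whereas DESeq2 called Cyp2d10 (0.17, adjusted p = 0.00311) and Cyp2d22 (-0.34, adjusted p = 0.0116) and limma with TMM factors called Cyp2d22 (adjusted p = 0.046). Without KO libraries 7 and 8, limma called Cyp2d22 (-0.48, adjusted p = 0.00241) and Cyp2d26 (-0.30, adjusted p = 0.0311). Cyp2d26 stood at 607, 590.2, 519 and 424 CPM in WT and 389, 384, 648 and 660.3 CPM in KO (-0.053, adjusted p = 0.849), with KO libraries 5 and 6 below all WT libraries and 7 and 8 above them all, as for Cyp2e1. The Cyp2d sum had a log2 change of -0.045 (limma adjusted p = 0.646). The largest changes that missed the threshold were those of Cyp4f16 (0.62, adjusted p = 0.175), Cyp2r1, the vitamin D 25-hydroxylase (-0.42, adjusted p = 0.0614), Cyp2c70, which makes muricholic acids (0.40, adjusted p = 0.128), Cyp2d22 (-0.31, adjusted p = 0.0598) and Cyp4b1 (0.31, adjusted p = 0.0503). Cyp4b1 was called with TMM factors (adjusted p = 0.0401), edgeR (adjusted p = 0.0459), DESeq2 (adjusted p = 0.0162), sample weights and abundant noncoding RNAs removed. Sample weights and the fit of all 24 libraries also called Cyp2d22, Cyp2r1 and Cyp2c70.

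**Figure D4:**
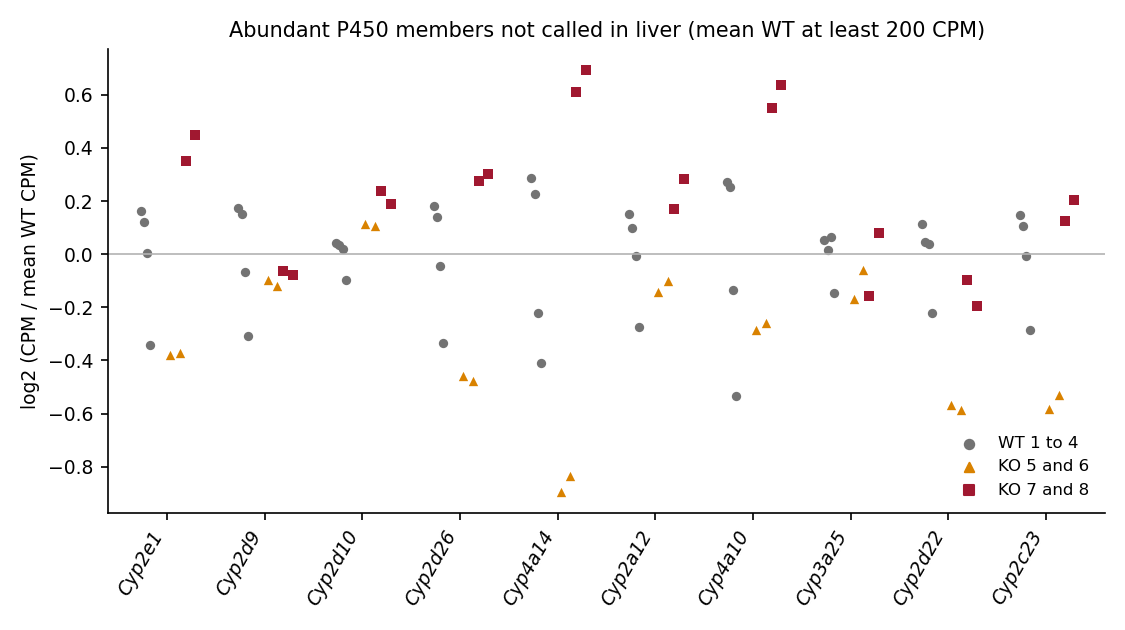
Liver libraries of the members with a WT mean of at least 200 CPM that were not called, as log2 of CPM over the WT mean (vertical axis), ordered by WT mean (horizontal axis), with WT as grey circles, KO 5 and 6 as orange triangles and KO 7 and 8 as red squares. Triangles and squares lie on opposite sides of the WT points for Cyp2d26, Cyp2e1 and Cyp4a14, and for Cyp4a14 KO ran from 237 to 713 CPM.

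Summed by subfamily, which does not depend on how reads were split within one, 7 of the 14 tested subfamilies passed. The 5.91% of single genes called is not a like rate, and none was made for other summed families. Each subfamily that passed holds a member called by itself. Cyp2e, Cyp2f, Cyp2r, Cyp2u, Cyp4b and Cyp4v hold 1 gene each, so their sums repeat the test of that gene. Cyp2b, Cyp2c, Cyp2j, Cyp3a and Cyp4v were higher in KO, with log2 changes of 1.80, 0.30, 0.30, 0.55 and 0.35. Cyp2a was lower by a log2 change of -0.32 (limma adjusted p = 0.0253) and Cyp2f by -0.37 (limma adjusted p = 0.0061). Cyp2d, Cyp2e, Cyp2r, Cyp2u, Cyp4a, Cyp4b and Cyp4f did not pass. The count of 7 became 4 to 6 with single libraries left out, the lowest without WT library 1, 2 or 3 or KO library 6, and 0 with neighbouring libraries summed. The call of Cyp2c was lost without any single library except WT 4 (adjusted p = 0.0542 to 0.125) and that of Cyp2j without any except KO 7 (adjusted p = 0.0593 to 0.0997). Cyp2a was not called without WT library 1, 2 or 3 or KO library 5 or 6 (adjusted p = 0.0596 to 0.0869), and edgeR called neither Cyp2a nor Cyp2j (adjusted p = 0.0515 and 0.0641). Cyp2b, Cyp2f and Cyp3a were called with each single library left out. Cyp4v had an adjusted p of up to 0.0466, on the other side of the threshold from the 0.0519 of Cyp4v3, its 1 gene, in the gene-level fit without WT library 1, so it adds nothing to that gene's result.

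By known regulation, most lists held members that passed and members that did not. Among 6 genes listed as CAR or PXR targets, Cyp2b10, Cyp2c29 and Cyp3a11 rose and Cyp2c37, Cyp2c55 and Cyp3a25 did not pass (median log2 change 0.369), and their summed level was 2888 to 3572 CPM in WT and 4381 to 4900.0 CPM in KO. Of 7 tested genes listed as female-biased, Cyp2b9 and Cyp2b10 rose, Cyp2c40 and Cyp2c69, which passed the filter through WT alone, fell, and Cyp2c38, Cyp2c39 and Cyp4a14 did not pass (median -0.049). Of 4 tested genes listed as male-biased, Cyp2d9, Cyp2u1 and Cyp4a12a did not pass and the non-member Cyp4a12b fell (-1.53, adjusted p = 0.00764, median -0.32). Among 5 listed PPARalpha targets, Cyp4a31 and Cyp4a32 rose (median 0.235). Among 8 listed as pericentral, Cyp2c29, Cyp2c50, Cyp2c54 and Cyp3a11 rose and Cyp2a5 fell (median 0.199). On a list of oxidases of arachidonate or fatty acids that holds Cyp2j and Cyp4 genes and leaves out Cyp2c29, Cyp2c40, Cyp4a31 and Cyp4a32, 13 were tested, of which Cyp2j5 and Cyp4v3 rose and Cyp4a12b fell (median 0.0014). The lists overlap. Over all genes tested the median was -0.003, and 2.79% were called higher and 3.12% lower.

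Partners and regulators of the P450 genes were read from further lists. Of 14 genes of electron supply and heme turnover 1 passed, Por, which stood at 239.7, 235, 232 and 195 CPM in WT and 131, 130.3, 171 and 163 CPM in KO and was lower in each KO library than in any WT library (limma, log2 change -0.57, adjusted p = 0.00276; median of the list -0.129). Of 26 transcription factors known to act on P450 genes, Dbp and Tef fell and Foxa3 and Ppargc1a rose (median -0.033). Dbp, a circadian output factor known to drive Cyp2a5, stood at 8.37, 6.48, 10.5 and 9.52 CPM in WT and 1.80, 1.98, 1.16 and 0.958 CPM in KO, without overlap (limma, log2 change -2.77, adjusted p = 0.001). Tef, of the same family, had a log2 change of -0.44, adjusted p = 0.00611, Foxa3 of 0.56, adjusted p = 0.0446 and Ppargc1a of 0.67, adjusted p = 0.0425. The receptors Nr1i3 (CAR, 0.47, adjusted p = 0.105), Nr1i2 (PXR, -0.093, adjusted p = 0.664) and Ppara (0.21, adjusted p = 0.056) did not pass. The part of these genes in the P450 values was not tested.

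Further liver lists gave these counts, beside 5.91% of all genes called. Of 13 PPARalpha targets outside the P450 genes only Plin2 passed (0.28, adjusted p = 0.0402), with a list median of 0.041. Of 8 further male-biased genes Mup20 (0.69, adjusted p = 0.0038) and Susd4 rose and Nudt7 fell (median 0.194), and of 3 tested further female-biased genes none passed (median -0.060). Axin2 rose and Rhbg fell among 9 other pericentral genes (median -0.107), and Sds fell among 9 periportal genes (median -0.018). Of 16 genes of conjugation and export, Sult1a1 rose (0.64, adjusted p = 0.0092) and Ephx1 and Abcc3 fell (median 0.0). Of 11 tested P450 genes of other families, Cyp39a1 (0.97, adjusted p = 0.0038) and Cyp17a1 (1.09, adjusted p = 0.00613) rose and Cyp26b1 fell (-2.10, adjusted p = 0.0307), with a median of -0.107.

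Cell type markers in liver gave these values beside the P450 changes. Of 5 hepatocyte markers Apoa1 rose and Tat fell, and their sum was 43504 to 57918 CPM in WT and 53580 to 77993 CPM in KO. For 4 Kupffer cell and 4 endothelial markers none passed, with sums of 119 to 147 against 138 to 146 CPM and of 156 to 184 against 156 to 214 CPM. Among stellate markers Rgs5 rose and Col1a1 fell, with sums of 85.8 to 109 against 91.5 to 112 CPM. Sox9 rose among 2 tested cholangiocyte markers, with sums of 14.5 to 15.8 against 17.4 to 18.9 CPM. Blood markers held at most 12.5 CPM, granule cell markers were at 0, and spermatid markers summed to at most 0.0370 CPM. The part of these cells in the P450 values was not tested.

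In cerebellum, 2 of 13 tested members passed, both higher in KO. This was 15.4%, against 6.44% of the 16225 genes tested, of which 3.93% were called higher and 2.51% lower. The median log2 change was -0.004 over members and -0.006 over all genes, and WT and KO libraries did not overlap for 5 members (38.5%), against 13.8% of all genes. Cyp2j9 (ENSMUSG00000015224.10, chr4:96568429-96591578, minus strand), an arachidonate oxidase known in brain, stood at 33.1, 35.8, 36.6 and 36.2 CPM in WT and 39.5, 44.6, 40.5 and 44.7 CPM in KO. The groups did not overlap (limma, log2 change 0.25, SE 0.0552, adjusted p = 0.0215). Its neighbour Cyp2j6 (chr4:96516138-96553661, minus strand) stood at 9.70, 9.22, 6.97 and 8.87 CPM in WT and 10.5, 12.5, 11.9 and 10.9 CPM in KO, again without overlap (limma, log2 change 0.37, SE 0.102, adjusted p = 0.0483). That call was lost without any 1 of the 8 libraries (adjusted p = 0.056 to 0.124), and that of Cyp2j9 without WT library 1 or KO library 8 (adjusted p = 0.0672 to 0.0779). The count of 2 became 0 without WT library 1 or KO library 8, where 398 and 556 genes in all were called against 1045, and in the fit of all 24 libraries, where 1.03% of all genes were called. It became 1 without WT library 2 or 4 or KO library 5 or 7, with 459 to 985 genes in all, and with neighbouring libraries summed it was 0 by limma, with 4 members and 16.3% of all genes at an unadjusted p under 0.05.

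Not called by limma with quantile normalization in cerebellum were Cyp4x1, an enzyme known from brain, at 9.44, 9.06, 10.7 and 8.57 CPM in WT and 11.3, 11.9, 11.0 and 12.3 CPM in KO (0.29, adjusted p = 0.0572), and Cyp4v3 at 8.40, 8.36, 8.88 and 8.00 CPM in WT and 10.6, 9.21, 10.6 and 10.8 CPM in KO (0.28, adjusted p = 0.0683). Both had every KO library above every WT library. Cyp4x1 was called with TMM factors (adjusted p = 0.0485), both with sample weights, and Cyp4v3 without KO libraries 5 and 6 (adjusted p = 0.0352). Leaving out 1 library gave a call to Cyp4x1 without WT library 3 and to Cyp4v3 without KO library 6. Cyp2j12 (-0.63, adjusted p = 0.158), Cyp2s1 (0.29, adjusted p = 0.245) and Cyp4f15 (-0.24, adjusted p = 0.746) were low. The abundant Cyp2d22 (-0.056, adjusted p = 0.595), Cyp2u1 (-0.012, adjusted p = 0.923) and Cyp4f13 (-0.083, adjusted p = 0.556) stood near no change. Markers of other cells differed between these libraries. Ttr, a marker of choroid plexus, stood at 935, 962, 1.09 and 0.816 CPM in WT and 1.87, 1.96, 317 and 312 CPM in KO, and the sum of the 4 choroid markers ran from 2.96 to 1035 and from 4.98 to 341 CPM. Granule cell markers summed to 1352 to 1379.9 CPM in WT and 1189 to 1303 CPM in KO, with Gabra6 and Neurod1 lower, and Purkinje markers to 1662 to 1831 and 1634 to 1844 CPM, with Pcp2 higher. Their part in the P450 values was not tested.

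In testes, 5 of 17 tested members passed, 1 higher and 4 lower in KO. This was 29.4%, against 20.5% of the 19329 genes tested, of which 9.74% were called higher and 10.7% lower. The median log2 change was 0.098 over members and 0.0 over all genes, and WT and KO libraries did not overlap for 5 members (29.4%), near the 28.6% of all genes. For 5 tested members, the called Cyp2e1 and Cyp4f15 among them, 1 group alone would have met the filter while the other did not reach it in all libraries, and of the remaining 12 members 3 were called (25.0%). Cyp4f39 (ENSMUSG00000061126.5, chr17:32452723-32493320, plus strand), whose human counterpart hydroxylates very long fatty acids of the skin barrier, stood at 19.9, 21.6, 20.7 and 20.6 CPM in WT and 13.9, 13.1, 10.5 and 11.9 CPM in KO. Its WT level was higher here than in the other tissues, and all KO libraries lay well below all WT libraries (limma, log2 change -0.86, SE 0.0998, adjusted p = 0.00151). Without WT libraries 3 and 4, where 11 genes in all were called, it was not (adjusted p = 0.0672). Cyp4f15 stood at 1.25, 0.621, 0.735 and 0.817 CPM in WT and 1.73, 1.32, 1.77 and 1.76 CPM in KO, near the filter, which all 4 KO libraries and 1 WT library reached, so that it would have been tested through the KO group alone and its test is a description. Its groups did not overlap (limma, log2 change 0.87, SE 0.205, adjusted p = 0.0149), and the call was lost without WT library 3 (adjusted p = 0.0514).

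The other calls in testes were weaker. Cyp2d26 stood at 12.2, 15.3, 15.1 and 14.2 CPM in WT and 12.2, 12.4, 9.56 and 10.3 CPM in KO, where WT library 1 fell within the KO range (limma, log2 change -0.47, SE 0.119, adjusted p = 0.0196), and the call was lost without WT library 2, 3 or 4 (adjusted p = 0.0533 to 0.0647). Cyp4f37 stood at 3.36, 3.19, 3.27 and 3.58 CPM in WT and 2.85, 2.95, 2.32 and 2.90 CPM in KO, without overlap (limma, log2 change -0.40, SE 0.123, adjusted p = 0.0401). It shares 12.57% of its windows, first with Cyp4f16, and its call was lost with TMM factors, edgeR and DESeq2, and without any single library except KO 5 or 6 (adjusted p = 0.0561 to 0.117). Cyp2e1 stood at 4.27, 4.46, 3.57 and 3.70 CPM in WT and 0.644, 0.481, 2.55 and 3.67 CPM in KO (limma, log2 change -1.82, SE 0.513, adjusted p = 0.0294). KO libraries 5 and 6 did not reach the filter, which the WT group met alone, and KO library 8 was inside the WT range, and neither edgeR (log2 change -1.18) nor DESeq2 (-1.20) called it. Nor did limma without any one of the WT libraries or KO library 5 or 6 (adjusted p = 0.0526 to 0.0646). Not called by limma with quantile normalization were Cyp4v3 (0.49, adjusted p = 0.0815), Cyp4f13 (0.30, adjusted p = 0.166), Cyp4f17 (0.34, adjusted p = 0.3), Cyp2j6 (0.32, adjusted p = 0.24), Cyp2c23 (-0.30, adjusted p = 0.226), Cyp2u1 (-0.27, adjusted p = 0.111) and Cyp2d22 (0.10, adjusted p = 0.615). Of these, sample weights called Cyp4v3 and Cyp2u1, the fit of all 24 libraries called Cyp4v3, and limma without KO libraries 5 and 6 called Cyp4f13 (adjusted p = 0.00799) and Cyp4f17 (adjusted p = 0.0236).

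The count of 5 became 3 without WT library 1, 2 without WT library 2 or 4, and 1 without WT library 3, while the calls over all genes went from 3957 to 3095 without WT library 1, 2624 without 2, 1741 without 3 and 1746 without 4. With neighbouring libraries summed it was 0 by limma, with 6 members and 20.9% of all genes at an unadjusted p under 0.05. Cell type markers in testes gave these values. Sertoli cell markers summed to 88.0 to 102 CPM in WT and 127 to 177 CPM in KO, with Wt1, Sox9 and Rhox5 higher of 4 tested. Spermatid markers summed to 6495 to 6762 and 4375 to 6057 CPM, with Prm1 and Prm2 lower of 4 tested. Leydig cell markers summed to 1016 to 1106 and 921 to 1532 CPM, with Hsd3b1 higher of 5 tested. The part of these cells in the P450 values was not tested.

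**Figure D5:**
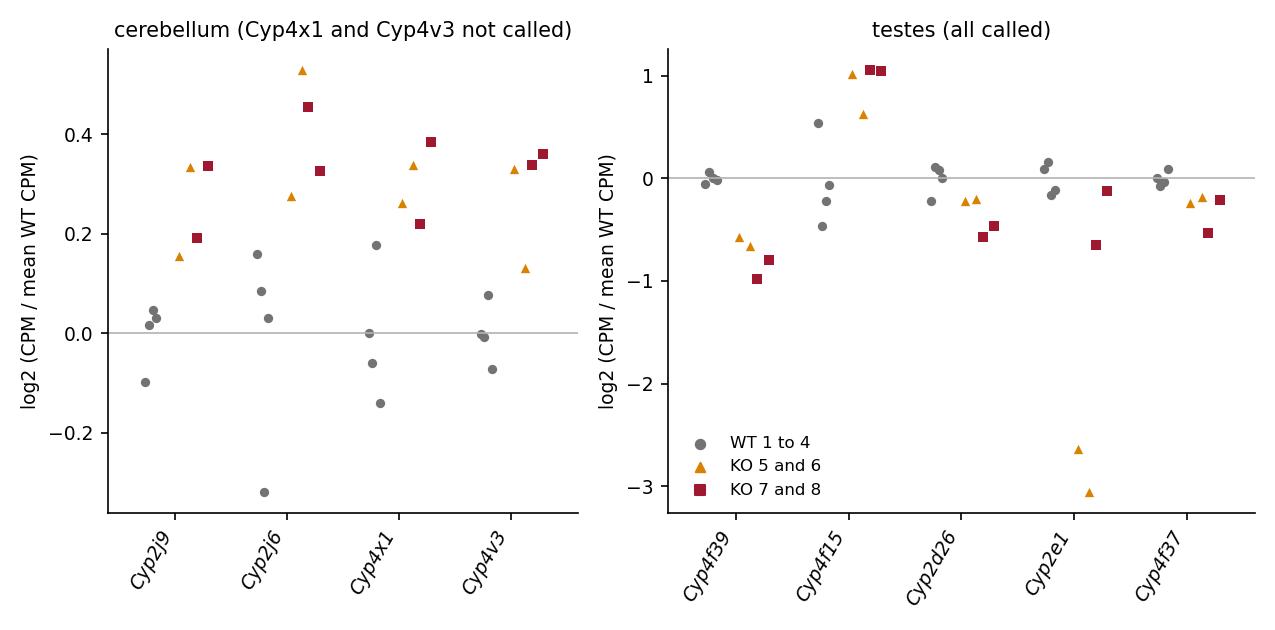
Libraries of cerebellum (left) and testes (right) as log2 of CPM over the WT mean (vertical axis) for the called members and, in cerebellum, Cyp4x1 and Cyp4v3 (horizontal axis), with WT as grey circles, KO 5 and 6 as orange triangles and KO 7 and 8 as red squares. Cyp4f39 in testes lies between 10.5 and 13.9 CPM in KO, below all WT libraries.

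Across tissues, Cyp4v3 had all KO libraries above all WT libraries in liver, cerebellum and testes, with log2 changes of 0.35, 0.28 and 0.49, of which the first passed. Cyp2e1 did not pass in liver and was called lower in testes, and Cyp2j9 was called in cerebellum and not in liver (0.31, adjusted p = 0.482). The difference of the KO effect between tissues was tested for the 8 members that passed the filter in all 3. Of these 24 tests limma called 0, with 4 at an unadjusted p under 0.05, and edgeR called 2. Of the 11112 genes tested, 7.67% were called for liver minus cerebellum, 15.9% for testes minus liver and 14.5% for testes minus cerebellum. By edgeR the KO effect in testes minus that in liver was 0.83 for Cyp4f15 (adjusted p = 0.0259) and 0.41 for Cyp2d22 (adjusted p = 0.0493). For the members tested in fewer tissues the difference was not tested.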

How the data were processed

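The authors aligned paired-end, ribosomal RNA-depleted, stranded total RNA reads with STAR to mm10 and deposited RSEM expected counts per gene (GENCODE M21). Versions and the counting strand are not given in the sources used here. The table is not normalized. Of the nonzero values of a library, 12.32% to 16.61% are not whole, and 0 columns lacked a sample.

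For each tissue, genes with at least 1 CPM in at least 4 libraries were quantile normalized with voom and compared with limma 3.58.1 (R 4.3.3), with Benjamini-Hochberg adjustment over all genes and a threshold of 0.05. Called means past this threshold. Differences between tissues used TMM factors from edgeR 4.0.16 and 3 contrasts over 24 libraries. As alternatives served edgeR, DESeq2 1.42.0 (both with rounding to whole numbers), TMM, other filters, sample weights, a common fit, 6 abundant noncoding RNAs removed, single libraries left out and, added after seeing the data, neighbouring libraries summed or left out in pairs. The steps were tested on simulated data.

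Values of a library are CPM of all counts. Counting error alone is covered by the limit of 3 counts. Levels per length used the main transcript. Named in each tissue were all called members, the 5 most abundant and the 5 largest changes not called. From other lists, called or most abundant genes were named, short lists of P450 genes in full, and Cyp4a10, Cyp4a14, Cyp2c37, Cyp3a13, Cyp3a25, Cyp3a59, Cyp2b13, Cyp2a4, Cyp2c68, Cyp2d10, members whose call changed without a pair and the receptors CAR, PXR and PPARalpha were added after their values were seen. The members and lists were chosen with earlier results of these data known. Lists were written from general knowledge.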

Additional observations from a re-analysis of the deposited data

Results flagged for a closer look

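In 6 of the 90 groups of 4 libraries examined for the named members, 1 library stood apart, its gap to the nearest of the other 3 taking more of the range of the group than Dixon's 95% limit. Chance gives such a gap in about 5% of groups. WT library 4 held 759 CPM of Cyp2f2 in liver, below the other WT libraries. In cerebellum, WT library 4 held 28.7 CPM of Cyp2d22 and KO library 6 held 9.21 CPM of Cyp4v3. In testes, KO library 6 held 1.32 CPM of Cyp4f15, KO library 7 held 2.32 CPM of Cyp4f37 and WT library 1 held 2.68 CPM of Cyp2c23.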

How the results depend on the processing

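The 16 calls in liver became 7 to 17 with single libraries left out, 5 without libraries 1 and 2, 10 without 3 and 4, and 0 with neighbouring libraries summed. They stayed between 15 and 22 under the other planned fits. Of all genes tested in liver, 2.28% to 6.23% were called with single libraries left out and 1.97% to 13.3% under those planned fits. The share was 1.32% without libraries 1 and 2, 6.3% without 3 and 4, and 0.078% with neighbouring libraries summed. The 2 calls in cerebellum became 1 with edgeR, with no filter, with the weaker filter (0.5 CPM in 2 libraries) and with abundant noncoding RNAs removed, 3 with TMM factors, 4 with sample weights, and 0 in the common fit, with neighbouring libraries summed and without libraries 1 and 2, 3 and 4, or 7 and 8. Single libraries left out gave 0 to 2. Of all genes, edgeR called 6.53%, no filter 2.26%, the weaker filter 5.33% and noncoding RNAs removed 6.2%. TMM factors called 6.59%, sample weights 10.8%, the common fit 1.03% and neighbouring libraries summed 0.296%. Without libraries 1 and 2, 3 and 4, or 7 and 8 the share was 2.31%, 2.05% and 2.39%. With single libraries left out it was 2.45% to 14.3%. The 5 calls in testes became 3 with edgeR and with DESeq2, 8 with the weaker filter, with sample weights and without libraries 5 and 6, 2 without 7 and 8 or without 1 and 2, 0 without 3 and 4 and with neighbouring libraries summed, and 1 to 4 with single libraries left out. The 7 subfamily sums called in liver became 4 to 6 with single libraries left out and 0 with neighbouring libraries summed. The causes were not tested, beyond the fewer samples of the reduced fits.

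For the KO effect between tissues, the 0 calls became 2 with edgeR, 0 to 2 with single libraries left out, and 2 with the replicate number as a block (testes minus liver, 0.41 for Cyp4f13, adjusted p = 0.0422, and 0.41 for Cyp2d22, adjusted p = 0.0261). The numbers are shared by tissues but not by genotypes. Same-numbered libraries did not deviate together in all pairs (r = -0.205 to 0.204), 8 of 24 matched their own number best, and the 4 KO pairs of liver and testes had r = 0.112 to 0.159. The labels do not settle whether the numbers mark a shared animal, and they were not taken as pairs.

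Of 45 values of named members, 7 changed sign somewhere and none of the 23 called ones did. Cyp2e1 in liver was 0.020 with TMM factors, 0.069 with edgeR, 0.073 with DESeq2 and 0.110 without libraries 5 and 6. Cyp2d9 in liver was 0.033 without 7 and 8 and 0.028 without 1 and 2. In cerebellum, Cyp2u1 was -0.041 to 0.019 with single libraries left out (0.019 without WT library 1, 0.002 without KO library 7), 0.018 without 7 and 8 and 0.040 without 1 and 2, Cyp4f13 was 0.002 without 3 and 4, and Cyp4f15 was -0.523 to 0.189 with single libraries left out (0.189 without KO library 8) and 0.339 without 7 and 8. In testes, Cyp2d22 was -0.031 (without KO library 7) to 0.19 with single libraries left out and -0.066 without 7 and 8, and Cyp4f17 was -0.025 without 7 and 8. Depth limits members near the filter, such as Cyp2c69 and Cyp4f15.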
